A study of Schizosaccharomyces pombe with 29 samples.

Results

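The nuclear genes of the respiratory chain and the mitochondrial ATP synthase were followed in fission yeast, Schizosaccharomyces pombe, strains whose RNA polymerase II carries altered carboxy-terminal domains. A gene was taken as a member when its ID is nuclear and its product text in the authors' deposited T4A table names ubiquinol-cytochrome c reductase, cytochrome c oxidase, succinate dehydrogenase, or the F0, F1 or F1-FO ATPase. That rule, which uses no expression value, found 52 of 6986 gene IDs. They comprise 3 subunits of complex II, 7 of complex III, 8 of complex IV, 14 of the ATP synthase and 20 assembly or other factors. Some subunits of these complexes have product texts without those words and are not among the members.

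Oxidative phosphorylation passes electrons from succinate and NADH through ubiquinone, complex III, cytochrome c and complex IV to oxygen, and the proton gradient that this builds drives the ATP synthase. Fission yeast has no proton-pumping complex I and uses single-protein NADH dehydrogenases instead. Complexes III and IV and the ATP synthase combine nuclear subunits with a few core subunits encoded in mitochondrial DNA, while complex II is all nuclear. YES, the growth medium used here, is rich in glucose, a condition in which this yeast ferments but still respires.

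Polyadenylated RNA was sequenced from log-phase cultures grown in YES at 30 °C, in 31 libraries of 10 groups. The domain is a tail of repeated heptads on Rpb1, the largest polymerase subunit, and the alleles Y1F, S2A, S2A-S7A, T4A, ALT-P3A, ALT-S5A and ALT-P6A have 29 heptads each, with the amino acid changes their names give. The labels do not expand ALT. WT18 has 18 wild-type heptads. The control, WT29, has 29 wild-type heptads and was deposited as 2 sets: set 1, libraries 1 to 3, is named by the labels as the control of Y1F, S2A and S2A-S7A, and set 2, libraries 4 to 6, as that of the other alleles. Each group has 3 libraries, except WT18 with 4. All new strains, WT29 included, are h+ with the NatMX marker at rpb1. T4A was re-analysed from an earlier study on a HiSeq instrument, and its mating type is not given in the labels used here. WT18 replicates 3 and 4 are also earlier libraries, from a strain labelled h- ade6 ura4-D18 leu1–32, with RNA from a Qiagen RNeasy kit and an older HiSeq model. All others used hot acid phenol RNA, and the new ones a NovaSeq. Except for the earlier WT18 pair, the labels do not say that libraries came from separate cultures, so the p-values below measure the spread between these libraries, which may be technical.

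Total counts ran from 15243598 to 35763201 per library, with a median of 22835109. Levels are counts-per-million values (CPM) over the library's TMM-scaled total. The log2 fold change of rpb1 itself ran from -2.97 in T4A to 0.15 in S2A-S7A, and it was 1.56 in set 2 against set 1; counts per gene do not show which tail a library carries. The marker genes of mating type did not set apart the earlier WT18 pair, labelled h-: map3, the pheromone receptor gene of P (h+) cells, lay between 13.4 and 21.8 CPM in all 4 WT18 libraries, and mam2, that of M (h-) cells, between 1.94 and 3.36 CPM. In set 2 they averaged 25.9 and 5.68 CPM. The P cell gene map2 averaged 7.28 CPM in WT18 and 10.2 CPM in set 2, and the M cell genes mfm1 and mfm3 stayed under 2 CPM in both. mfm2, an M factor gene, lay between 9.76 and 27.0 CPM in WT18 and between 1.66 and 3.12 CPM in set 2, and rec8, a meiotic cohesin gene, averaged 5.36 CPM in WT18 and 0.155 CPM in set 2. Their part in the WT18 results was not tested. No source used here says whether reads were counted by strand, so reads of a member and of an RNA that overlaps it on the other strand cannot be told apart.

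Of the 52 members, coa3 and ina17, which encode assembly factors of complex IV and of the ATP synthase stalk, had no count in any of the 31 libraries. A count of 0 allows up to 0.0839 CPM of the counted total in the deepest library and 0.197 CPM in the shallowest, by a limit of 3 counts that covers counting error only. The other 50 passed the low-count filter and were tested in all 13 comparisons. The 7 core subunit genes of the mitochondrial genome (cox1, cox2, cox3, cob1, atp6, atp8 and atp9) are listed at 0 in every library, so only the nuclear side of the system was measured. cox1101 and cox1102 are near-identical fusion genes whose reads could be split between them, and their values, means of 3.20 and 3.03 CPM over the groups, are uncertain.

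Members spanned a wide range of levels. Per kilobase of coding sequence, the highest was atp2 (SPAC222.12c), the catalytic beta subunit of the ATP synthase, at 1259 CPM per kb on average over the 10 groups. The next were qcr9 of complex III at 1172 CPM per kb, atp17 of the ATP synthase at 1039 CPM per kb and sdh3, the membrane anchor of complex II, at 941 CPM per kb. Many assembly factors lay far lower, with a mean of 4.78 CPM for atp10, whose product is an ATP synthase assembly protein.

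Summed over all members, the share of the scaled total was 1.14 ± 0.0464% for Y1F, 1.15 ± 0.101% for S2A and 1.15 ± 0.0320% for S2A-S7A, against 1.31 ± 0.0871% for control set 1 (SD, n = 3 each). The short-tailed WT18 had 0.822 ± 0.0205% (SD, n = 4) and T4A 0.955 ± 0.0367%, and the ALT alleles had 1.15 ± 0.0302% (ALT-P3A), 1.25 ± 0.0531% (ALT-S5A) and 1.18 ± 0.0390% (ALT-P6A), against 1.28 ± 0.0624% for control set 2 (SD, n = 3 each). On this scale WT18 and T4A were the lowest. In them and in Y1F, S2A-S7A, ALT-P3A and ALT-P6A every library was below every WT29 library. The libraries of S2A and ALT-S5A overlapped the WT29 range. These shares are of TMM-scaled totals, not of raw counts. The TMM factors were 1.32 to 1.41 in WT18, 0.82 to 0.86 in S2A-S7A, 0.81 to 1.04 in T4A and 1.02 to 1.09 in set 2. A raw share is close to the scaled share times this factor. By raw share WT18 is therefore not the lowest: it lies above S2A-S7A and T4A, and its gap to set 2 is smaller. Since these are bulk cultures, fewer cells of a kind and less RNA per cell cannot be told apart.

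The 2 control sets carry the same strain label, and their difference gives a scale for the rest. In set 2 against set 1, 13 of the 50 members were higher and 9 lower at an adjusted p under 0.05 (edgeR's quasi-likelihood test with Benjamini-Hochberg adjustment over all genes tested, used for every adjusted p below), with a median log2 fold change of -0.05; of all genes tested, 24.5% were higher and 19.5% lower. Members that were higher in set 2 included SPAC664.12c (log2 0.75 ± 0.14 SE), a predicted succinate dehydrogenase assembly factor, rcf1 (0.71 ± 0.12), qcr9 (0.69 ± 0.09) and cox7 (0.66 ± 0.08). Members that were lower included cox13 (-0.89 ± 0.23), SPBC8D2.12c (-0.86 ± 0.24), emi5 (-0.69 ± 0.22) and atp1 (-0.42 ± 0.07), the alpha subunit of the ATP synthase. Each allele was therefore also compared with the other control set, and a call is said to hold with either set when it passed the threshold in the same direction against both; the control sets are confounded with whatever else separates them. How many of all genes held with either set was not counted, so such counts describe the members and lists alone. Comparisons that share a control set are not independent of each other.

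Against their named control, most alleles had more members lower than higher. In Y1F, 7 members were higher and 19 lower, with a median log2 fold change of -0.13, and of all genes 23.6% were higher and 27.6% lower. S2A had 2 members higher and 16 lower (median -0.26; 18.2% of all genes higher and 17.5% lower). S2A-S7A had 4 higher and 25 lower (median -0.32; 29.4% and 31.1% of all genes). In both of these the medians of all genes tested were between -0.03 and -0.01. The share of members that were lower, 32% in S2A and 50% in S2A-S7A, was above that of all genes. The calls of lower that held with either control set numbered 13 for Y1F, 11 for S2A and 12 for S2A-S7A. The lower count of S2A was 10 without set 1 replicate 1 and 7 without set 1 replicate 2.

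T4A had a median of -0.35, which was -0.29 against set 1. There, 26 members were lower and 3 higher, while 22.4% of all genes were lower and 18.4% higher. With either control set, 20 members were lower and 1 higher. Both WT29 sets are NovaSeq libraries, while all T4A libraries come from an earlier study on a HiSeq. Allele, study and instrument therefore cannot be told apart in T4A, with either set. The higher count was 11 without T4A replicate 2 and 8 without set 2 replicate 5, while the lower count lay between 22 and 27 without any 1 library. ALT-P3A had 13 members higher and 18 lower (median -0.12; 21.8% of all genes higher and 21.0% lower), of which 1 and 9 held with either control set. With 1 joint fit for the groups that share set 2, ALT-P3A had 8 higher and 2 lower and ALT-P6A 4 lower. The lower count of ALT-P3A was 5 without its replicate 1 or its replicate 2, 11 without its replicate 3 and 10 without set 2 replicate 6, and its higher count was 7 without its replicate 1 and 5 without set 2 replicate 6. ALT-P6A had 9 higher and 15 lower (median -0.03; 22.1% and 23.3% of all genes), of which 1 and 5 held. ALT-S5A had 5 higher and 3 lower (median 0.01; 14.9% and 18.1% of all genes), of which 1 and 1 held, and 3 members turned direction.

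WT18, with the shortened tail, moved most. In it, 27 members were lower and 14 higher, with a median of -0.57, while 33.8% of all genes were lower and 35.8% higher. With either control set, 24 were lower and 12 higher. Past 2-fold there were 20 members in both directions together, which is 40% of those tested, where 36.5% of all genes were past it.

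**Figure D1:**
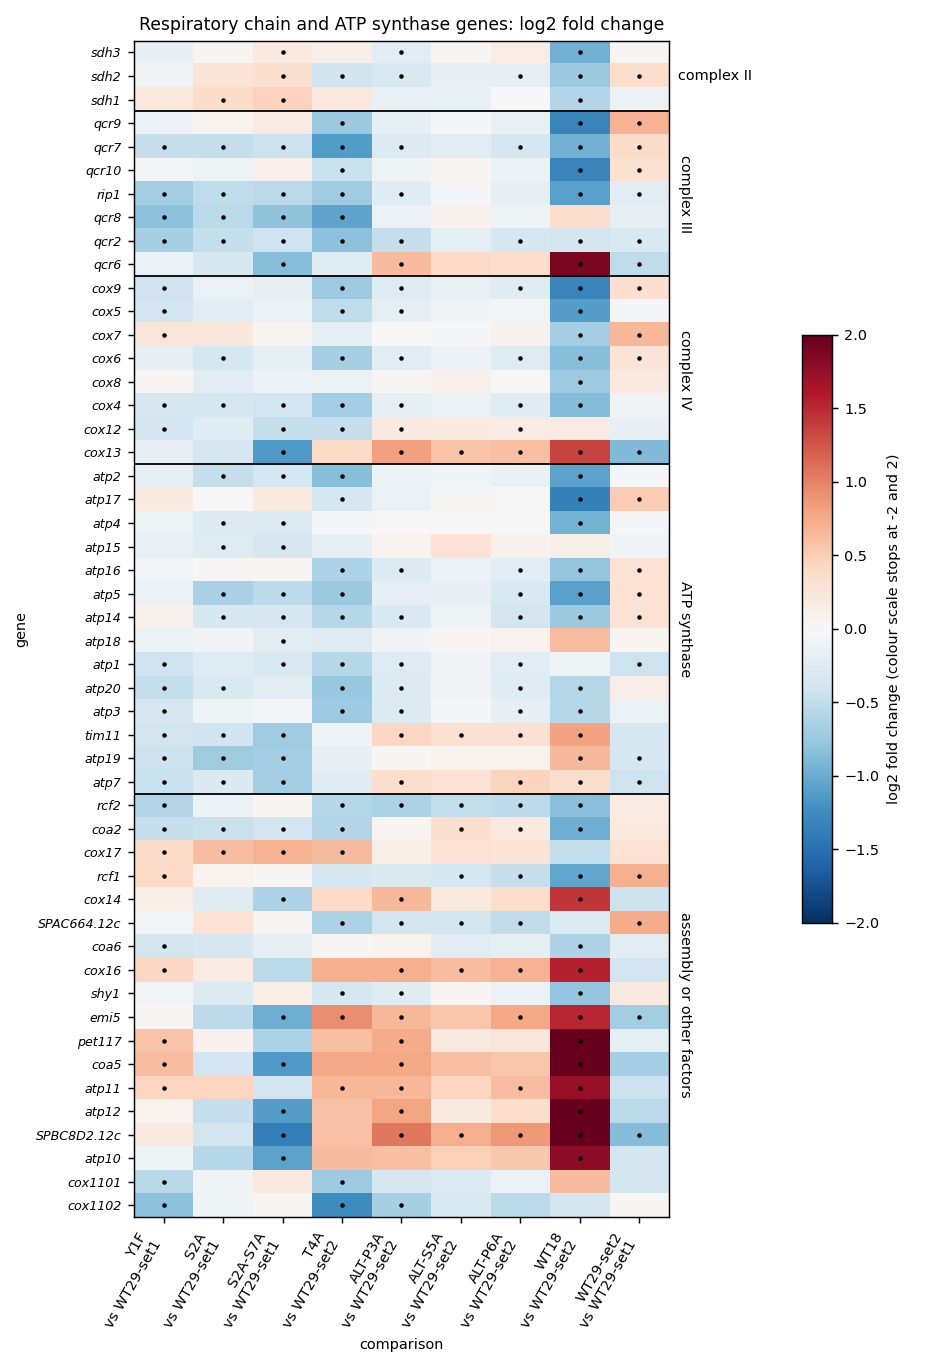
Heat map of the log2 fold change of the 50 tested members (rows, ordered by class) in 8 alleles (columns) against the WT29 set the labels name, with dots where the adjusted p is under 0.05. The T4A and WT18 columns hold the most lower values, with 26 and 27 members lower, and a group of assembly factors is higher in WT18.

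Complex III, which carries electrons from ubiquinol to cytochrome c, was lower in several alleles. Of its 7 members, 4 were lower in Y1F (median -0.45), 4 in S2A (-0.47), 5 in S2A-S7A (-0.44), 6 in T4A (-0.75), 3 in ALT-P3A (-0.17), 2 in ALT-P6A (-0.15) and 5 in WT18 (-0.96); qcr6 was higher in ALT-P3A and in WT18. The summed level of the class was 1610 ± 128 CPM in Y1F, 1724 ± 137 CPM in S2A and 1680.0 ± 74.6 CPM in S2A-S7A, against 2231 ± 161 CPM in set 1 (SD, n = 3 each). It was 1326 ± 63.8 CPM in T4A and 1510 ± 122 CPM in WT18, against 2226 ± 113 CPM in set 2 (SD, n = 3, and n = 4 for WT18).

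The Rieske iron-sulfur protein gene rip1 (SPBC16H5.06) had 344, 382 and 401 CPM in Y1F, 442, 454 and 383 CPM in S2A and 420.3, 388 and 404 CPM in S2A-S7A, against 648, 603 and 550.5 CPM in set 1. It had 339, 295 and 313 CPM in T4A and 202, 213, 288 and 236 CPM in WT18, against 516, 469 and 516 CPM in set 2. In these 5 alleles every library was below every library of the named control set. The log2 fold change was -0.69 ± 0.08 in Y1F (adjusted p = 1.9e-05), -0.50 ± 0.10 in S2A (0.0025), -0.54 ± 0.07 in S2A-S7A (0.00035), -0.71 ± 0.10 in T4A (0.00044) and -1.09 ± 0.12 in WT18 (0.00029). It was also lower in ALT-P3A (-0.25 ± 0.06, adjusted p = 0.012), and all 6 calls held with the other control set.

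qcr2 (SPCC613.10), a core protein of the complex, had 217, 227 and 186 CPM in T4A, against 375, 341 and 357 CPM in set 2. In Y1F it had 281, 300.2 and 296 CPM, against 496, 461 and 421 CPM in set 1. Neither pair of groups overlapped, and the fold changes were -0.82 ± 0.10 in T4A (adjusted p = 0.00017) and -0.66 ± 0.08 in Y1F (1.3e-05). Across the alleles qcr2 was lower in 7 of 8, the exception being ALT-S5A, and in 5 with either control set; S2A and S2A-S7A, at -0.48 and -0.42 against set 1, came to -0.18 and -0.08 against set 2 (adjusted p = 0.18 and 0.46).

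qcr7 (SPCC737.02c) and qcr8 (SPAC1782.07) encode small subunits of the complex. qcr7 had 262, 241 and 281 CPM in T4A, against 539, 509.7 and 591 CPM in set 2, a log2 fold change of -1.11 ± 0.11 (adjusted p = 4.1e-05). qcr8 had 89.7, 76.4 and 91.4 CPM in T4A, against 177, 166 and 176 CPM in set 2, which gave -1.06 ± 0.10 (adjusted p = 4.1e-05). Both lay well below the control level in every T4A library. qcr8 was also lower in Y1F (-0.81 ± 0.08), S2A (-0.54 ± 0.10) and S2A-S7A (-0.81 ± 0.06), all against set 1 and against set 2. In WT18 it had 251, 250.1, 212 and 159 CPM, a range that overlaps set 2, and did not pass the test (0.35 ± 0.18, adjusted p = 0.12). The largest falls of the class in WT18 were in qcr10 (-1.34 ± 0.16) and qcr9 (-1.31 ± 0.10).

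Complex IV reduces oxygen at the end of the chain. Of its 8 nuclear members, 5 were lower in T4A (median -0.49), 6 in WT18 (-0.79), 4 in Y1F, 2 in S2A, 3 in S2A-S7A, 4 in ALT-P3A and 3 in ALT-P6A, and 1 or 2 were higher in Y1F, in the ALT alleles and in WT18. Its gene cox4 (SPAC1296.02), a structural subunit, was lower in 7 alleles, again all but ALT-S5A, and in all 7 with either control set. The level of cox4 was 179, 176 and 163 CPM in T4A and 147, 145, 159 and 135 CPM in WT18, against 282, 250.3 and 276 CPM in set 2. It was 218, 234 and 249 CPM in Y1F, 233, 260.4 and 206 CPM in S2A and 234, 205 and 220.2 CPM in S2A-S7A, against 322, 276 and 277 CPM in set 1. No library of these 5 alleles reached its control set. The log2 fold changes ran from -0.18 ± 0.06 in ALT-P3A (adjusted p = 0.044) to -0.87 ± 0.10 in WT18 (adjusted p = 0.00027), with -0.69 ± 0.09 in T4A.

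In WT18 the subunit genes cox9 (-1.31 ± 0.10) and cox5 (-1.10 ± 0.10) fell by more than 2-fold. cox9 (SPCC1259.05c) had 75.8, 74, 93.1 and 87.7 CPM there, against 223, 188 and 209 CPM in set 2, with the earlier and the new WT18 libraries close together. cox13, the subunit VIa gene, went the other way in WT18 and is taken up below.

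The ATP synthase, with 14 members, was lower for 10 of them in S2A-S7A (median -0.32), 9 in S2A (-0.28), 8 in T4A (-0.46), 8 in WT18 (-0.57), 6 in Y1F (-0.17), 6 in ALT-P6A (-0.07) and 5 in ALT-P3A (-0.13). Higher were 2 members in ALT-P3A, 2 in ALT-P6A, 1 in ALT-S5A and 3 in WT18. The rises in the ALT alleles were of tim11 and atp7, and the authors' deposited values for them have the opposite sign. There tim11 was -0.29, -0.36 and -0.40 in ALT-P3A, ALT-S5A and ALT-P6A. atp7 was -0.41 in ALT-P3A and -0.31 in ALT-P6A. The class summed to 3994 ± 114 CPM in T4A and 3605 ± 265 CPM in WT18, against 5857 ± 284 CPM in set 2 (SD, n = 3, and n = 4 for WT18).

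The beta subunit gene atp2 had 1337, 1468 and 1235 CPM in T4A and 1245, 1191, 1057 and 950.0 CPM in WT18, against 2326, 2216 and 2514 CPM in set 2. In S2A it had 1902, 2045 and 1511 CPM and in S2A-S7A 2014, 1846 and 1917 CPM, against 2693, 2541 and 2292 CPM in set 1. All 4 alleles lay below their controls without overlap. The fold changes were -0.85 ± 0.12 in T4A (adjusted p = 0.00034), -1.07 ± 0.14 in WT18 (0.00042), -0.47 ± 0.12 in S2A (0.014) and -0.35 ± 0.08 in S2A-S7A (0.0044), and each held with the other control set. In Y1F atp2 did not pass (-0.18 ± 0.09, adjusted p = 0.11).

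atp5 (SPCC1840.06), which encodes the subunit named delta in the product text, was also lower in S2A and not past the threshold in Y1F. It had 259, 257 and 213 CPM in S2A, against 396, 389 and 349 CPM in set 1, a log2 fold change of -0.65 ± 0.10 (adjusted p = 0.00061). Y1F, at 319, 355 and 379 CPM, overlapped set 1 (-0.12 ± 0.08). In the direct contrast, atp5 was higher in Y1F than in S2A by 0.51 ± 0.09 (adjusted p = 0.00087). Its other falls were -0.52 in S2A-S7A, -0.75 in T4A, -0.30 in ALT-P6A and -1.09 in WT18.

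atp3, the gamma subunit of the central stalk, was lower in 5 alleles and in all 5 with either control set (Y1F, T4A, ALT-P3A, ALT-P6A and WT18). The largest fall of any member in WT18 was that of atp17 (SPBC1604.11), subunit f, with 147, 150.1, 129 and 139 CPM, against 367, 335 and 395 CPM in set 2 (-1.36 ± 0.11). By contrast, the alpha subunit gene atp1 did not pass in WT18 against set 2 (-0.09 ± 0.09, adjusted p = 0.40), where it had 665, 663, 681 and 636 CPM, against 741, 691 and 698 CPM in set 2. Every WT18 library was still below set 2, and set 1 was higher, at 1061, 968 and 926 CPM. The authors' deposited DESeq2 value for atp1 in WT18 was -0.41 (adjusted p = 1.5e-08).

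**Figure D2:**
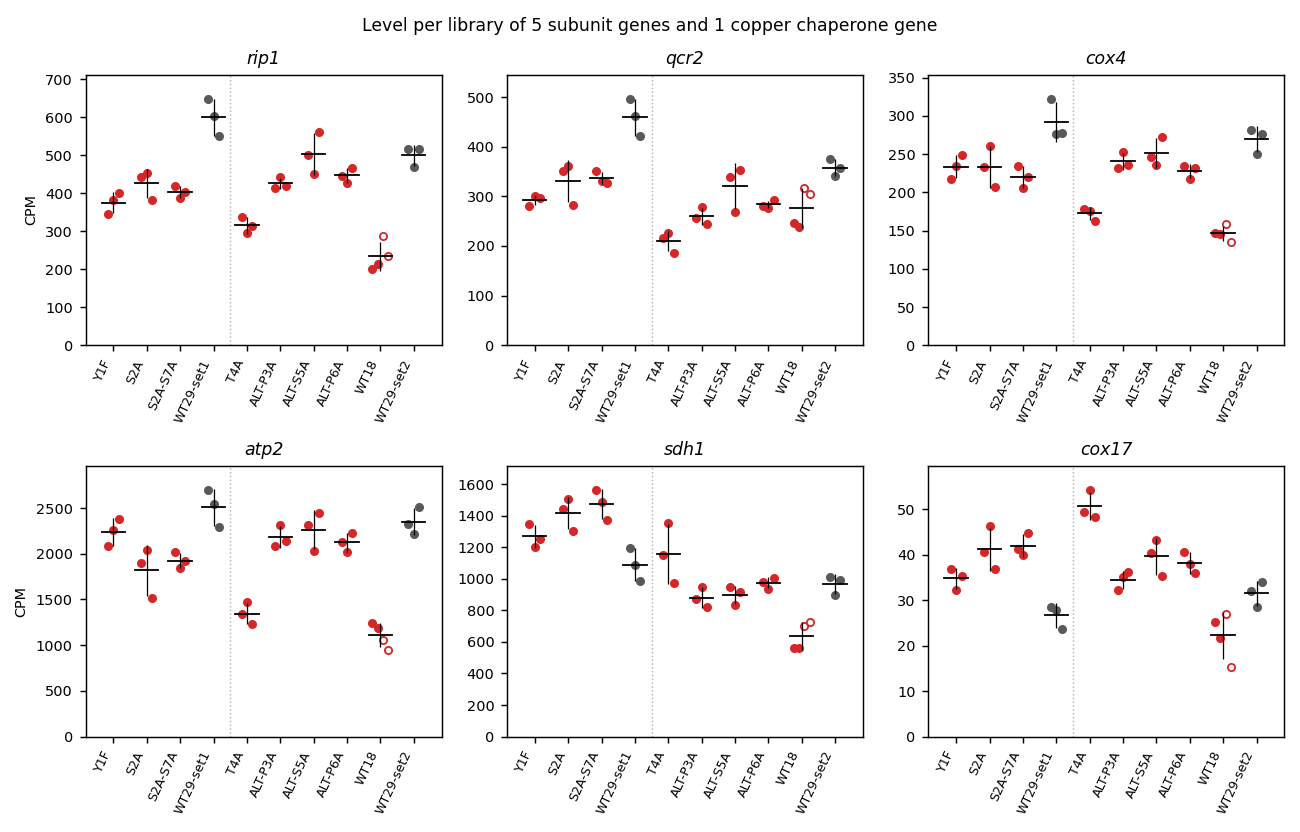
Level in CPM per library (points) of 5 subunit genes and the copper chaperone gene cox17, with group mean and SD, on linear axes from 0; red points are alleles, grey points WT29 sets and open circles the earlier WT18 libraries. rip1, cox4 and atp2 are lowest in WT18 and T4A, sdh1 is highest in S2A-S7A and S2A, and cox17 is highest in T4A.

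Complex II, the succinate dehydrogenase shared with the citric acid cycle, differed from the other complexes in S2A-S7A. All 3 of its members were higher there: sdh1 (the flavoprotein, SPAC1556.02c), sdh2 (the iron-sulfur protein) and sdh3. They are highly expressed, and of the other coding genes at 200 CPM or more 53.2% were higher in S2A-S7A, with a median of 0.20. sdh1 had 1559.7, 1484 and 1371 CPM in S2A-S7A and 1439, 1508 and 1305 CPM in S2A, against 1198, 1085 and 986 CPM in set 1. Every library of both alleles was above set 1. The fold change was 0.46 ± 0.08 in S2A-S7A (adjusted p = 0.0015; 0.61 against set 2) and 0.37 ± 0.10 in S2A (adjusted p = 0.017; 0.49 against set 2). For sdh2 and sdh3 the rise in S2A-S7A was 0.31 ± 0.06 and 0.20 ± 0.06 against set 1 but -0.01 and 0.20 against set 2 (adjusted p = 0.91 and 0.078), so sdh1 alone held with either set. In WT18 all 3 were lower, by log2 changes of -0.59, -0.75 and -0.97 for sdh1, sdh2 and sdh3, and all 3 held with either set. Of the other coding genes at that level 70.9% were lower in WT18, with a median of -0.76. The class summed to 1265 ± 171 CPM in WT18, against 2097 ± 132 CPM in set 2 (SD, n = 4 and n = 3).

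Assembly and other factors, with 18 members tested, split in both directions. Their counts of higher and lower members were 6 and 5 in Y1F, 1 and 1 in S2A, 1 and 7 in S2A-S7A, 3 and 6 in T4A, 8 and 4 in ALT-P3A, 3 and 3 in ALT-S5A, 5 and 3 in ALT-P6A, and 9 and 5 in WT18. The class median in WT18 was 1.03, the only class there with a median above 0, and the summed level, 805 ± 84.5 CPM in WT18 and 884 ± 35 CPM in set 2 (SD, n = 4 and n = 3), overlapped.

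cox17 (SPBC26H8.14c), the copper chaperone that feeds complex IV, had 49.5, 54.2 and 48.4 CPM in T4A, against 32.1, 28.5 and 34 CPM in set 2. It had 41.4, 39.9 and 44.7 CPM in S2A-S7A, against 28.5, 27.8 and 23.6 CPM in set 1. Both alleles lay wholly above their controls while all complex IV subunits that passed the test in them were lower. The rise was 0.64 ± 0.13 in T4A (adjusted p = 0.0036) and 0.69 ± 0.12 in S2A-S7A (0.0013), and both held with the other set. Y1F (0.37 ± 0.11) and S2A (0.62 ± 0.14) also rose against set 1 but came to 0.10 and 0.32 against set 2 (adjusted p = 0.48 and 0.089). The ALT alleles, by contrast, passed the test only against set 1, with 0.38, 0.59 and 0.54 there and 0.12, 0.30 and 0.28 against set 2 in ALT-P3A, ALT-S5A and ALT-P6A.

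rcf2 (SPAC1565.01) encodes a protein that in budding yeast binds the complex III and IV supercomplex. It was lower in 6 alleles, all with either control set, and was the one member to be lower in this way in ALT-S5A. Its levels were 299, 298 and 271 CPM in ALT-P3A, 338, 338 and 294 CPM in ALT-S5A and 311, 304 and 313 CPM in ALT-P6A, against 439, 416 and 475 CPM in set 2. None of these 9 libraries reached set 2, and the changes were -0.63 ± 0.07, -0.49 ± 0.09 and -0.52 ± 0.06 for ALT-P3A, ALT-S5A and ALT-P6A (adjusted p = 0.00021, 0.002 and 0.00018). rcf2 also fell in Y1F (-0.59 ± 0.07), T4A (-0.57 ± 0.12) and WT18 (-0.83 ± 0.11). In S2A and S2A-S7A it did not pass against set 1 (-0.12 and 0.04).

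The complex IV assembly factor coa2 (SPAC15A10.17) divided the alleles. It had 51.3, 54.7 and 63.9 CPM in Y1F, 58.2, 55.3 and 58.1 CPM in S2A and 52.7, 57.7 and 63 CPM in S2A-S7A, against 84.8, 80 and 67.1 CPM in set 1. It had 63.5, 52.5 and 59.4 CPM in T4A and 103, 116 and 111 CPM in ALT-S5A, against 91.8, 77.6 and 86 CPM in set 2. It was below the controls in the first 4 alleles and above them in ALT-S5A, with no overlap. The fold change was -0.46 in Y1F, -0.44 in S2A, -0.39 in S2A-S7A, -0.59 in T4A and -0.97 in WT18, against 0.33 in ALT-S5A and 0.19 in ALT-P6A, and all 7 held with either control set. rcf1, which in budding yeast acts in the same supercomplex as Rcf2, turned with the control set: in Y1F it was 0.40 ± 0.12 against set 1 and -0.29 against set 2, past the threshold with opposite signs.

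A set of 11 members, chosen after their values were seen because their group means spanned over 1.5 log2 units, were alike in where they were highest and lowest. It holds SPBC8D2.12c, atp10, atp11, atp12, coa5, pet117, emi5, cox14 and cox16 among the assembly factors, and the subunit genes qcr6 and cox13. The nearest members below that limit were atp17 at 1.43 and qcr10 at 1.42. All 11 had their highest mean in WT18, and 10 their lowest in S2A-S7A, the exception being atp11, the ATP synthase chaperone, lowest in set 2. Their mean levels were low, from 4.78 to 109 CPM. Since the set was cut from these values, the counts that follow describe it and test nothing.

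SPBC8D2.12c, a predicted translational activator of the cox1 messenger RNA, had 30.3, 30.1, 35.7 and 49.1 CPM in WT18, against 4.88, 9.08 and 7.98 CPM in set 2. It had 4.31, 6.12 and 5.39 CPM in S2A-S7A, against 12.5, 12.7 and 16.3 CPM in set 1. The WT18 libraries were all above and the S2A-S7A libraries all below their controls. The fold changes were 2.31 ± 0.27 in WT18 (adjusted p = 0.00032; 1.38 against set 1) and -1.36 ± 0.19 in S2A-S7A (adjusted p = 0.00052; -0.48 against set 2, adjusted p = 0.11).

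qcr6, the acidic hinge protein of complex III, had 269, 246, 310.0 and 274 CPM in WT18, against 55.1, 89.9 and 80.1 CPM in set 2, a rise of 1.88 ± 0.18 (adjusted p = 0.0002; 1.30 against set 1). It had 45.3, 69.1 and 65.4 CPM in S2A-S7A, against 102, 104 and 127 CPM in set 1 (-0.86 ± 0.16). qcr6 thus moved against its fellow subunits qcr9 and qcr10 in WT18. cox13 did the same in complex IV, with 139.6, 136, 129 and 163 CPM in WT18, against 36.6, 75.2 and 56.9 CPM in set 2 (1.35 ± 0.24, adjusted p = 0.0015). Set 1 was nearer to WT18, with 90.4, 106 and 128 CPM of cox13. The authors' deposited DESeq2 value for cox13 in WT18 was 0.16 (adjusted p = 0.27). Of the ATP synthase chaperones, atp12 rose by 2.16 ± 0.31 and atp11 by 1.74 ± 0.24 in WT18.

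All 11 were higher in WT18, with a median log2 fold change of 1.80. In S2A-S7A 8 of them were lower (median -0.98), while 10 were higher in ALT-P3A (0.70), 5 in ALT-P6A (0.55), 4 in Y1F (0.12), 3 in ALT-S5A (0.48) and 2 in T4A (0.60); the median in S2A was -0.33. The other 39 members had 3 higher and 27 lower in WT18 (median -0.74), 4 and 17 in S2A-S7A (-0.17), 3 and 18 in ALT-P3A (-0.18) and 1 and 26 in T4A (-0.57). With the other control set all 11 were again higher in WT18, and the 4 rises in Y1F held. Of the 10 rises in ALT-P3A 1 held, while the 8 falls in S2A-S7A and the rises in T4A, ALT-S5A and ALT-P6A did not pass in the same direction with the other set.

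Single libraries also moved this set. Its summed level was 139 to 236 CPM in S2A-S7A and 664 to 892 CPM in WT18, while set 1 held 323 to 434 CPM and set 2 held 166 to 299 CPM. Within set 2, replicate 4 was lowest for 11 of the 11 genes, and within set 1 replicate 1 for all 11. Within T4A replicate 2 was lowest for all 11, and without that library 10 of the 11 were higher in T4A. The 11 stayed higher in WT18 without any 1 library, and in S2A-S7A 8 or 9 were lower.

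**Figure D3:**
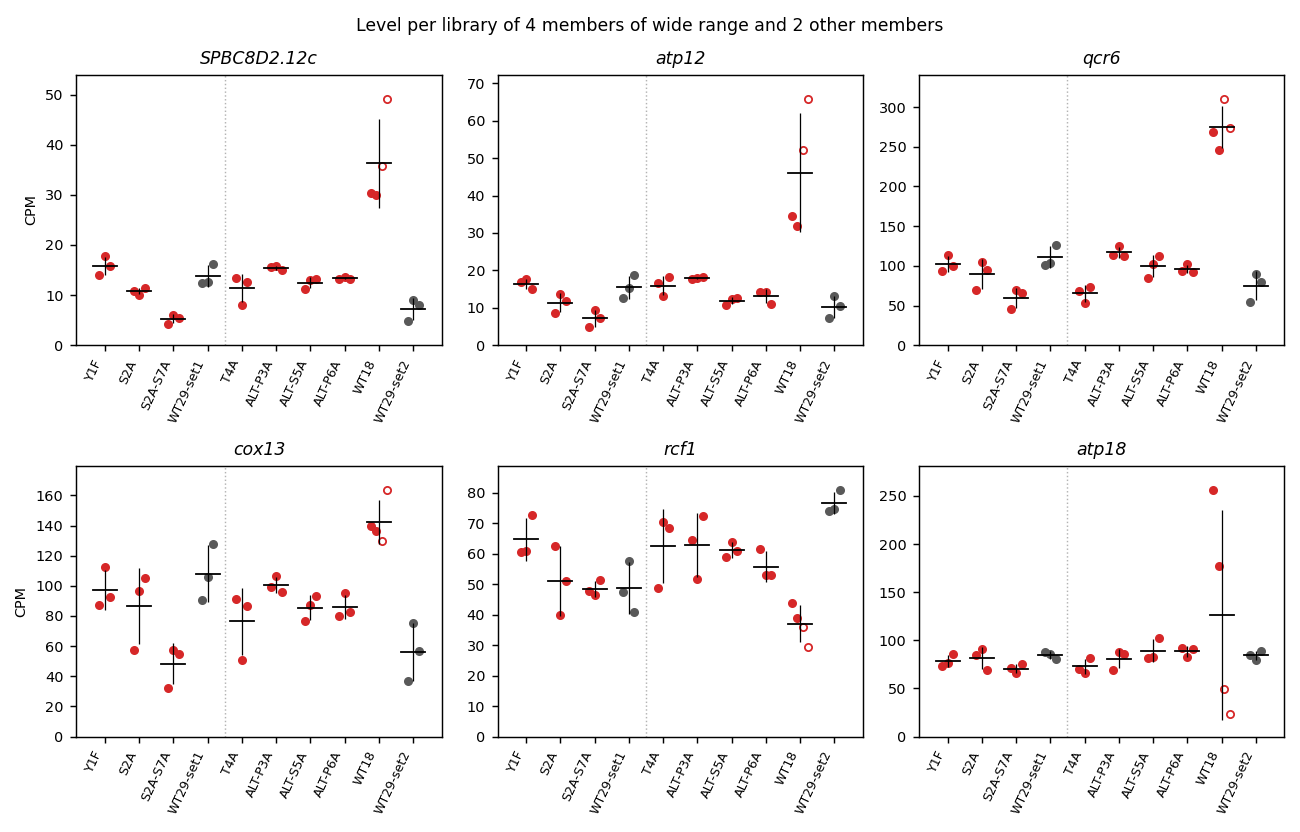
Level in CPM per library (points) of 6 members, SPBC8D2.12c, atp12, qcr6, cox13, rcf1 and atp18, with group mean and SD on linear axes from 0; open circles are the earlier WT18 libraries. The first 4 are highest in WT18 and low in S2A-S7A and set 2, rcf1 differs between the WT29 sets, and atp18 separates the new WT18 libraries (256 and 177 CPM) from the earlier ones (48.9 and 23.3 CPM).

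In WT18 direction went with expression level, among members and among other genes alike. Members averaging 200 CPM or more (19) had a median log2 fold change of -0.94 in WT18, and those under 50 CPM (14) one of 1.54; the other protein-coding genes in the same classes of level had medians of -0.76 and 0.87. In WT18, 18 of the 19 highly expressed members were lower, where 70.9% of other coding genes of that level were. In S2A-S7A the other coding genes ran the opposite way, at 0.20 for 200 CPM or more and -0.43 for under 50 CPM, while the members had -0.13 and -0.58. T4A differed: the 19 highly expressed members had a median of -0.62 and 16 of them were lower. The other coding genes of that level had 0.09 there and 15.3% of them were lower. Allele, study and instrument cannot be told apart in T4A here either. In S2A and S2A-S7A 8 of the 19 were lower, where 13.6% and 9.07% of the other genes of that level were. ALT-S5A had medians of -0.09 for these members and 0.01 for the others.

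**Figure D4:**
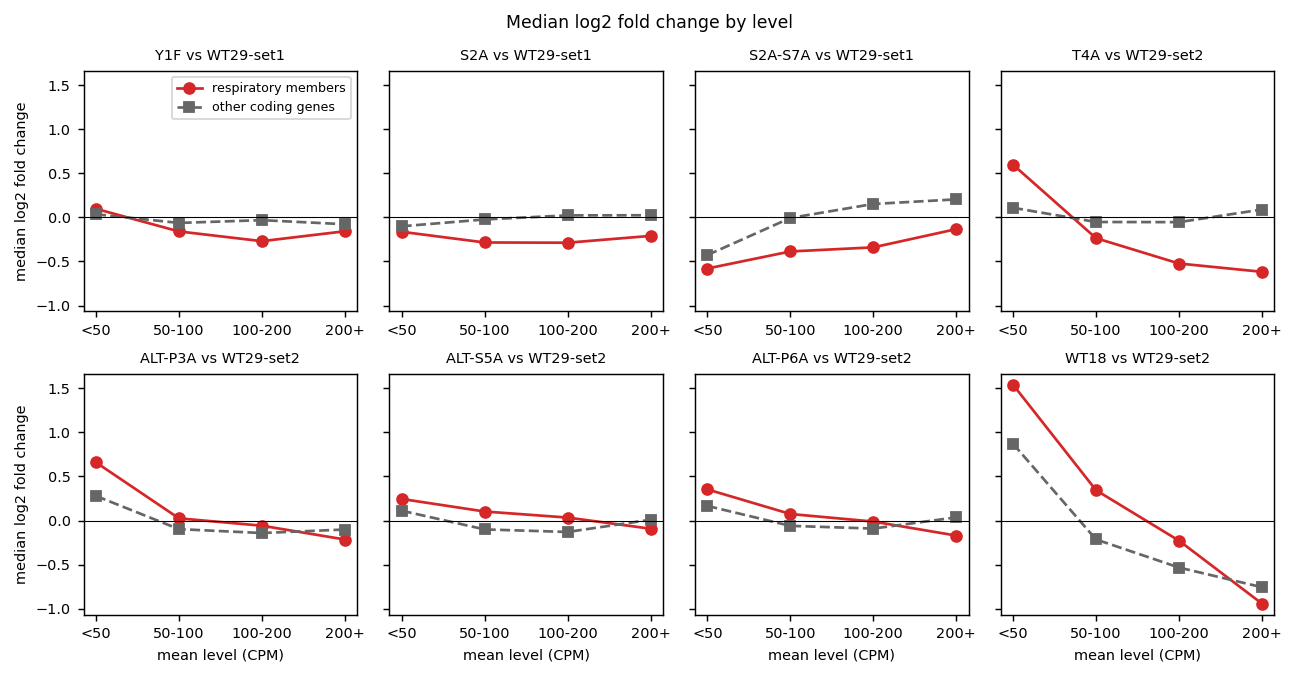
Median log2 fold change against the named WT29 set, by class of mean level (under 50, 50 to 100, 100 to 200, and 200 CPM or more), for members and for other protein-coding genes in each allele. In WT18 both fall with level, from 1.54 to -0.94 for members and from 0.87 to -0.76 for other genes, while in T4A the members of 200 CPM or more lie at -0.62 and the other genes at 0.09.

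WT18 holds new and earlier libraries, which also differ in RNA kit, instrument and labelled genotype, so these cannot be told apart. With the new pair alone, 19 members were higher and 29 lower, and with the earlier pair alone 14 and 25. The shares of all genes called with each pair are not given here, so these counts describe the members alone. SPBC8D2.12c rose by 2.08 with the new pair and 2.66 with the earlier one, and the log2 fold change of qcr10 was -1.62 with the new pair and -0.95 with the earlier one. For atp18 (SPAC23C4.11), subunit J of the ATP synthase, the pairs parted: the new libraries had 256 and 177 CPM and the earlier ones 48.9 and 23.3 CPM, against 85.2, 79.6 and 88.6 CPM in set 2. The new pair was above set 2 and the earlier pair below it, and the test over all 4 did not pass (0.62 ± 0.73, adjusted p = 0.47).

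Differences between alleles were tested directly where alleles share a control set and an instrument. S2A-S7A against S2A, which differ by the second substitution in the name, had 1 member higher and 6 lower, where 17.5% of all genes were higher and 16.9% lower. Replicate numbers tracked the counts in this pair, and with them as a block 13 members were lower. Among those past the threshold, the largest differences were in SPBC8D2.12c (-0.99 ± 0.18, adjusted p = 0.0038), atp11 (-0.81 ± 0.20) and cox13 (-0.80 ± 0.25). Without S2A replicate 1 the count of lower members was 11, and it was 3 without S2A replicate 2, S2A-S7A replicate 1 or S2A-S7A replicate 3. Complex II did not differ past the threshold between them: sdh1 was 0.09 ± 0.09 and sdh2 0.06 ± 0.08.

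Y1F against S2A had 7 members higher and 5 lower (16.8% of all genes were higher and 25.4% lower). Here coa5, a complex IV assembly factor, was higher by 0.98 ± 0.23 (adjusted p = 0.0046), with 17.8, 22.7 and 19.3 CPM in Y1F and 6.58, 9.8 and 13.4 CPM in S2A, and atp14, subunit h of the ATP synthase, by 0.40 ± 0.10. rcf2 was lower, at -0.48 ± 0.09 (adjusted p = 0.0014), and so was sdh2, at -0.33 ± 0.08 (0.0054). The higher count was 11 without set 1 replicate 3, 3 without Y1F replicate 2 and 4 without Y1F replicate 3. The lower count was 12 without S2A replicate 3, 3 without set 1 replicate 3 or Y1F replicate 2, and 2 without set 1 replicate 1 or 2, Y1F replicate 1 or S2A replicate 1. It was also 2 with DESeq2 size factors, with its Wald test and with no filter.

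ALT-P3A against ALT-S5A had 1 member higher, atp12 (0.59 ± 0.18, adjusted p = 0.035), and 7 lower, where 9.5% of all genes were higher and 11.6% lower. sdh3 was lower, at -0.29 ± 0.06 (adjusted p = 0.0076), with 443, 463 and 449.8 CPM in ALT-P3A and 573, 527 and 550.0 CPM in ALT-S5A, and rip1 was at -0.24 ± 0.08 (0.043). The lower count was 2 without ALT-P3A replicate 1, 3 without ALT-P3A replicate 2 and 3 without ALT-S5A replicate 1. The rise of atp12 did not pass without any 1 of the 6 allele libraries or without set 2 replicate 6, and 3 members were higher without set 2 replicate 4 or 5. ALT-P6A against ALT-S5A had 0 members higher and 0 lower by edgeR (0.0814% and 0.228% of all genes were higher and lower), and 0 and 0 by the Wald test of DESeq2. At an unadjusted p under 0.05 there were 0 higher and 11 lower, and with replicate number as a block, which tracked the counts here, 1 was lower.

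**Figure D5:**
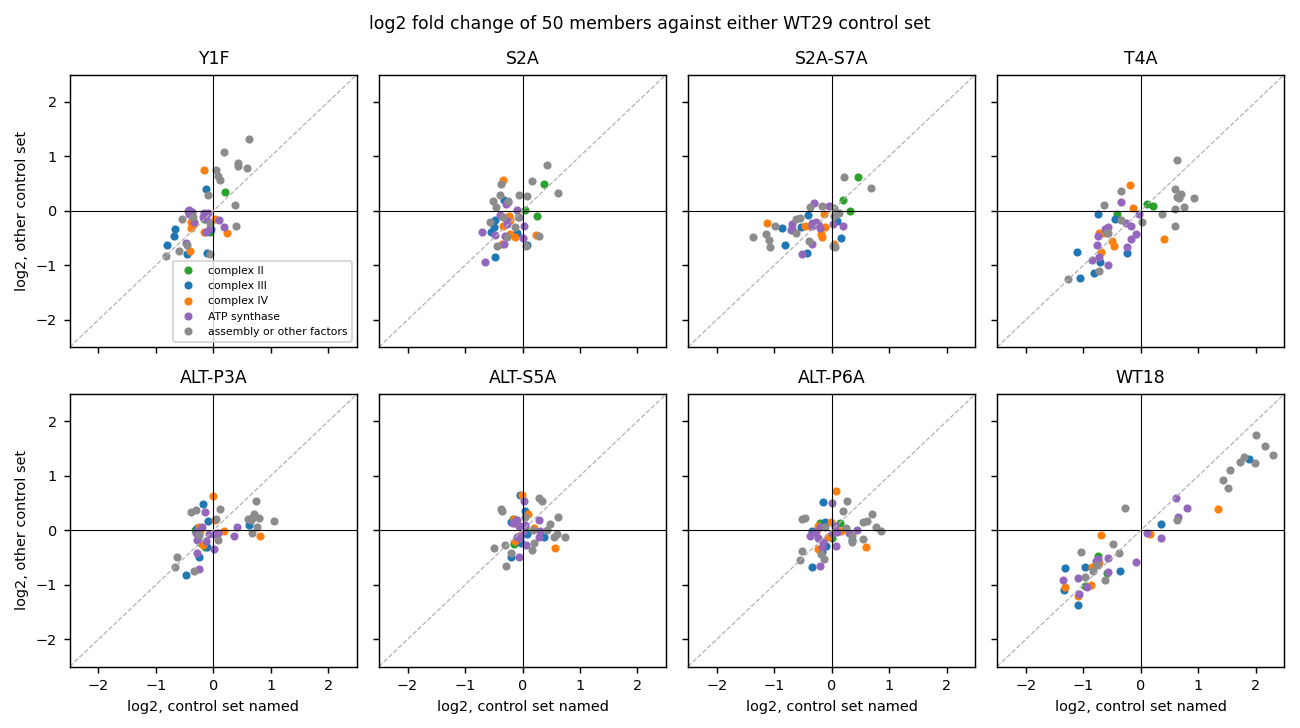
log2 fold change of the 50 tested members with the WT29 set the labels name (x axis) and with the other WT29 set (y axis), 1 panel per allele, points coloured by class, with the line of equality. Distance from the line follows from the difference between the WT29 sets: 4 of the 50 members change sign between them in WT18, 9 in T4A, 10 in Y1F, 14 in S2A-S7A, 18 in S2A, 18 in ALT-P3A, 21 in ALT-P6A and 24 in ALT-S5A, 3 of these last past the threshold with opposite signs.

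Some pairs of comparisons that share no library were set side by side, and the other such pairs were not computed. Over the 50 members, the log2 fold changes of Y1F (against set 1) and T4A (against set 2) had Pearson r = 0.72 and Spearman rho = 0.67, where 4872 other coding genes had 0.52 and 0.43. Those of S2A-S7A and WT18 had r = -0.73 and rho = -0.60, where 4885 other coding genes had -0.45 and -0.52. For S2A with T4A the members had r = 0.18 and rho = 0.14 and 4874 other coding genes 0.19 and 0.10, and for S2A-S7A with T4A the members had r = -0.38 and rho = -0.30 and 4872 other coding genes -0.0079 and -0.10. These values are across genes, which are not independent replicates, so no p is given.

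Calls on genes next to the members in the pathway often changed with the control set. The shares of all genes called in each allele, given above, are the scale for the counts in these lists. Of the electron carrier and entry genes cyc1, nde1 and gut2, 2 were lower in T4A and 2 in ALT-P3A, of which 2 and 1 held with either set, and the calls in other alleles did not hold (2 lower in Y1F, 1 in S2A, 2 in S2A-S7A, 1 in ALT-P6A and 1 in WT18). cyc1, cytochrome c, averaged 396 ± 39.2 CPM in T4A, against 597 ± 31.3 CPM in set 2 (SD, n = 3 each), a log2 fold change of -0.64 ± 0.10 (adjusted p = 0.00094; -1.22 against set 1). gut2, the glycerol-phosphate dehydrogenase, was -1.42 ± 0.16 in T4A (adjusted p = 0.00012; -0.62 against set 1). In Y1F cyc1 was -0.69 ± 0.09 against set 1 (adjusted p = 3.7e-05) but -0.10 against set 2 (0.26), and nde1, an NADH dehydrogenase, was -0.60 against set 1 and 0.43 against set 2, past the threshold with opposite signs.

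Of 12 ubiquinone synthesis genes, 6 were lower and 2 higher in WT18, and all 8 calls held with either set. Of all genes, 33.8% were lower and 35.8% higher there. In the other alleles at most 2 calls in a direction held: 2 of 3 higher in Y1F, 2 of 3 higher in T4A, 1 of 3 higher in S2A, 1 of 2 higher and 1 of 2 lower in S2A-S7A, 1 of 3 lower in ALT-P3A and 1 of 3 lower in ALT-P6A.

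The citric acid cycle list, of 11 genes, had 6 higher and 1 lower in S2A-S7A (median 0.23), against 29.4% and 31.1% of all genes. Most of these genes are highly expressed, and of the other coding genes at 200 CPM or more 53.2% were higher in S2A-S7A, with a median of 0.20. Against set 2, 8 of the list were higher, and 5 held with either set, among them idh2, a subunit of isocitrate dehydrogenase (0.55 ± 0.07), and cit1, citrate synthase (0.46 ± 0.08). The calls of lower that held were 7 of 7 in ALT-P3A, 6 of 6 in WT18, 3 of 4 in T4A, 2 of 2 in ALT-P6A, 1 of 3 in Y1F and 1 of 1 in ALT-S5A. In S2A-S7A against S2A, 7 genes of the list were higher, where 17.5% of all genes and 44.0% of the other coding genes at 200 CPM or more were.

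Among 14 mitochondrial gene expression factors, 6 were higher and 5 lower in WT18, of which 6 and 4 held with either set. That is near the shares of all genes there, 35.8% higher and 33.8% lower. In the other alleles the lower calls that held were 4 of 4 in Y1F, 3 of 4 in S2A, 4 of 7 in S2A-S7A, 3 of 5 in T4A, 2 of 5 in ALT-P3A, 1 of 3 in ALT-S5A and 2 of 6 in ALT-P6A. rpo41, the mitochondrial RNA polymerase, was -0.80 ± 0.13 in Y1F, -0.95 ± 0.18 in S2A-S7A and 1.08 ± 0.12 in WT18, and all 3 held, at -0.57, -0.71 and 0.80. It was also lower in S2A (-0.66) and T4A (-0.61) with either set.

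Of 72 mitochondrial ribosomal protein genes, 33 were higher and 16 lower in WT18, with a median of 0.26 (0.22 against set 1), and 24 and 13 held with either set. Of all genes, 35.8% were higher and 33.8% lower in WT18. ALT-P6A had 35 higher and 11 lower (0.29; 0.13 against set 1), of which 13 and 6 held, where 22.1% of all genes were higher and 23.3% lower. T4A had 20 and 8 (0.15; 0.09 against set 1), of which 6 and 5 held. The other alleles had 6 and 20 in Y1F, 6 and 6 in S2A, 13 and 24 in S2A-S7A, 25 and 14 in ALT-P3A and 17 and 6 in ALT-S5A, of which 3 and 14, 3 and 1, 6 and 3, 7 and 6, and 3 and 2 held.

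Of the 130 cytosolic ribosomal protein genes, 100 were lower in WT18 (median -0.87; -1.19 against set 1) and 99 of these held, and 101 were lower in Y1F (-0.32; -0.17 against set 2) and 56 held. Of all genes, 33.8% were lower in WT18 and 27.6% in Y1F. Of the non-member coding genes at 200 CPM or more, 70.9% were lower in WT18 (median -0.76) and 36.7% in Y1F. Those genes can include ribosomal protein genes. In ALT-P3A 23 were lower and 20 held. The rises held for 8 of 41 in T4A, 5 of 40 in ALT-P6A, 9 of 18 in S2A-S7A and 1 of 1 in S2A, while the 11 in ALT-S5A did not hold, and there 34 were lower against set 1.

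The CCAAT-binding factor and the iron regulators Php4 and Fep1 are known to act on respiratory and iron-using genes in this yeast. Of these 5 genes, 4 were lower in WT18 (median -1.15; -0.62 against set 1) and 3 of them held with either set. T4A had 1 higher and 2 lower, of which 1 and 1 held, and Y1F 1 and 1, of which the lower one held. The calls in the other alleles (3 higher in S2A-S7A, 1 higher in S2A, 3 lower in ALT-P3A, 2 lower in ALT-S5A and 3 lower in ALT-P6A) did not hold. php5, a subunit of the factor, averaged 148 ± 16.3 CPM in T4A, against 291 ± 15.3 CPM in set 2 (-1.03 ± 0.10, adjusted p = 4.1e-05), and was -1.15 ± 0.15 in WT18, with -0.44 and -0.62 for T4A and WT18 against set 1. It was itself higher by 0.60 ± 0.07 in set 2 than in set 1. php4, the subunit that represses under low iron, was higher in T4A (0.43; 0.65 against set 1).

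Of the glucose-repressed genes fbp1, inv1 and ght5, inv1 rose by 2.05 ± 0.18 in S2A, 2.18 ± 0.14 in S2A-S7A and 1.08 ± 0.15 in Y1F, which were 1.62, 1.79 and 0.68 against set 2, all past the threshold. fbp1 turned with the control set, at 1.06 ± 0.24 in T4A against set 2 and -1.04 against set 1, and was -2.10 ± 0.24 in set 2 against set 1. The 8 core stress genes were all higher in Y1F with either set (median 1.54; 1.48 against set 2). Of the 7 higher in T4A (0.93) 5 held, of the 7 in ALT-P3A (0.49) 4, of the 6 in ALT-S5A (0.56) 4, of the 6 in ALT-P6A (0.31) 3, and of the 4 in S2A-S7A (0.21) 4, while the 2 in WT18 did not. In S2A 1 higher and 3 lower held. The part of these shifts in the members' values was not tested.

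In the authors' deposited tables, 18 members were lower and 7 higher in Y1F, 24 and 5 in S2A, 27 and 5 in S2A-S7A, 33 and 3 in T4A and 28 and 10 in WT18, at their adjusted p under 0.05. The authors' deposited tables of ALT-P3A, ALT-S5A and ALT-P6A have 21, 20 and 24 members lower and 3, 2 and 1 higher. The shares of all genes called in those tables were not counted, so these counts describe the members alone. For ALT-S5A the authors' 20 lower stand beside the 3 counted here against set 2, by another test and with other control values. Some calls also have the opposite sign there, and how many was not counted. cox13, higher here in ALT-P3A, ALT-S5A and ALT-P6A, was -0.37, -0.59 and -0.58 in the authors' values. rcf1, lower here in ALT-S5A, was 0.39 in theirs. The rises of tim11 and atp7 in the ALT alleles, set out above, were falls in theirs. These values all had an adjusted p under 0.05 by the authors' test. The control means in the tables of T4A, WT18 and the ALT alleles did not follow from the counts of set 2, so those tables and the counts here rest on control values that differ.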

How the data were processed

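Counts are whole numbers of reads for each gene as the authors deposited them, from HISAT2 2.1.0, SAMtools and HTSeq 0.10.0 on assembly ASM294v2, per the submitters' processing notes. A deposited table for each allele gives log2 fold changes and adjusted p-values, for which those notes name DESeq2, and group means of a normalised signal. Allele means and set 1 means were rebuilt from the counts to a median difference under 0.3%. The set 2 means were not (median difference 24.4% to 24.8%). The 3 control columns numbered 4 to 6 were taken as set 2 by elimination. Library totals ran from 15243598 to 35763201 counts.

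Only the libraries of a comparison entered its fit, by edgeR 4.0.16 in R 4.3.3 (limma 3.58.1 was installed as its base): filterByExpr, TMM scaling, quasi-likelihood F test, Benjamini-Hochberg adjustment over all genes tested, threshold 0.05. Direct contrasts included the shared control set. Scaling alternatives moved the median of all genes by under 0.1 log2. Alternatives were size factors and the Wald test of DESeq2 1.42.0, no filter beyond 1 count, 1 joint fit for the groups that share a control set, the other control set, leaving out each library, replicate number as a block, and the WT18 pairs alone. The script was tested on simulated counts. Same-numbered libraries deviated together in every pair only for S2A-S7A with S2A (r = 0.46, 0.11 and 0.20) and ALT-P6A with ALT-S5A (0.15, 0.23 and 0.24).

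Genes were named where they had up to 5 of the largest rises or falls in a comparison without overlap, were called in 6 or more alleles, led or varied most in a class, failed the filter or belong to a list; the choice among these was made after values were seen, as was that of atp18, cox14 and cox1101, which the rule does not name. Members and lists were chosen with earlier results of these data known. Names and coding lengths came from RefSeq ASM294v3, which matched 6833 of 6986 IDs and all 52 members; its coordinates were not used, no sequence is shown, and the search of promoters for CCAAT was not run, because the builds differ. ndi1, coq2, coq8, coq12 and ppr9 were not matched. lsc1 was left out of the citric acid cycle list, since in the product text that symbol is a cyclin.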

Additional observations from a re-analysis of the deposited data

Results flagged for a closer look

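Of 50 members with 4 WT18 libraries, 2 had a library far from the other 3; chance alone gives about 1 in 20 such groups. qcr7 had 392 CPM in WT18 replicate 4 and 236, 238 and 249 CPM in the others, against 509.7 to 591 CPM in set 2. The complex IV assembly factor cox14 had 79.3 CPM in WT18 replicate 4, an earlier library.

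In 3 direct contrasts the member with the largest difference past the threshold is given as differing between alleles. SPBC8D2.12c was -0.99 in S2A-S7A against S2A, coa5 was 0.98 in Y1F against S2A, and atp12 was 0.59 in ALT-P3A against ALT-S5A, each by the edgeR test of the contrast itself. All 3 belong to the 11 members of wide range, whose summed level differed between libraries of 1 group.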

How the results depend on the processing

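Counts of lower members in Y1F, S2A-S7A, T4A, WT18 and set 2 against set 1 stayed within 1.5 times under every alternative other than leaving out a library. With 1 joint fit for the groups that share a control set, the counts were 4 higher in Y1F, 4 higher in S2A, 8 higher in T4A, 8 higher and 2 lower in ALT-P3A, 1 higher and 1 lower in ALT-S5A and 4 lower in ALT-P6A. With the other control set they were 11 higher in Y1F, 6 higher in ALT-P3A, 9 higher and 7 lower in ALT-S5A and 5 higher in ALT-P6A. The Wald test of DESeq2 gave 4 higher in S2A, 6 higher in T4A, 9 higher in ALT-S5A, 2 lower in Y1F against S2A and 3 higher in ALT-P3A against ALT-S5A. DESeq2 size factors gave 5 higher in T4A and 2 lower in Y1F against S2A, and no filter also gave 2 lower there. The cause was not tested.

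With replicate number as a block, S2A had 5 higher and 26 lower, S2A-S7A against S2A 13 lower, and Y1F against S2A 11 higher; for the 2 alleles alone, ALT-P3A against ALT-S5A had 3 higher and ALT-P6A against ALT-S5A 1 lower. The block moved no other count past 1.5 times. No paired analysis was possible because T4A, the ALT alleles and WT18 share no replicate numbers with set 2.

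All 14 reversals among the named genes came with the other control set: Y1F rcf1 -0.29; S2A-S7A sdh2 -0.012; ALT-P3A cox13 -0.10, SPAC664.12c 0.33 and sdh2 0.0088; ALT-S5A SPBC8D2.12c -0.12, cox13 -0.32, tim11 -0.018, SPAC664.12c 0.38 and rcf1 0.35; ALT-P6A SPBC8D2.12c -0.022, cox13 -0.31, SPAC664.12c 0.21 and rcf1 0.22. Of the other 58 values, 39 kept their call and 19 lost it. The authors' deposited values, some of which also turn sign, are not among these alternatives.

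Leaving out a library gave ranges of higher and lower members of 3 to 8 and 18 to 26 in Y1F, 1 to 4 and 7 to 13 in S2A, 3 to 5 and 23 to 28 in S2A-S7A, 2 to 11 and 22 to 27 in T4A, 5 to 14 and 5 to 20 in ALT-P3A, 1 to 11 and 1 to 4 in ALT-S5A, 5 to 13 and 8 to 18 in ALT-P6A, 12 to 15 and 23 to 28 in WT18, and 7 to 15 and 3 to 13 in set 2 against set 1. They were 1 to 1 and 3 to 11 in S2A-S7A against S2A, 3 to 11 and 2 to 12 in Y1F against S2A, and 0 to 3 and 2 to 7 in ALT-P3A against ALT-S5A. The libraries that moved these last counts past 1.5 times are named with those contrasts above. In the comparisons with a control set, counts that moved past 1.5 times were higher members in Y1F without Y1F replicate 2 (3), in S2A without set 1 replicate 1 (4) or 2 (1) or S2A replicate 1 (1) or 3 (4), in T4A without T4A replicate 2 (11) or set 2 replicate 5 (8), in ALT-P3A without its replicate 1 (7) or set 2 replicate 6 (5), in ALT-S5A without its replicate 2 (2) or set 2 replicate 4 (3), 5 (11) or 6 (1), in ALT-P6A without its replicate 1 (5) or 2 (5), and in set 2 against set 1 without set 1 replicate 3 (7) or set 2 replicate 6 (7). Lower members moved so in S2A without set 1 replicate 1 (10) or 2 (7), in ALT-P3A without its replicate 1 (5), 2 (5) or 3 (11) or set 2 replicate 6 (10), in ALT-S5A without set 2 replicate 6 (1), in ALT-P6A without its replicate 2 (8), and in set 2 against set 1 without set 2 replicate 6 (3).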
